A study of Homo sapiens with 16 samples.

Results

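The SR proteins, the hnRNPs and the subunits of SF3A and SF3B are 3 families of proteins that act on pre-mRNA, and the data give the mRNA levels of their genes in LNCaP cells after SLIRP knockdown. A gene was a member if its symbol began with SRSF, HNRNP, SF3A or SF3B and its mean count over the 16 libraries was at least 10. The count table still lists the SR protein genes under their older SFRS symbols, and 0 of its rows begin with SRSF, so that the symbols as written found 29 genes, all hnRNPs and SF3 subunits. The SR family was therefore taken by Entrez gene identifier, as every row whose current RefSeq symbol begins with SRSF. This gave 40 genes of 20531 in the table, 11 SR proteins, 20 hnRNPs and 9 SF3 subunits. Of 42 rows of the 3 families, 2 fell under the minimum, SRSF12 with a mean count of 0.81 and HNRNPCL1 with 0 counts in every library, and the lowest member inside it was SF3B5 with a mean count of 50.6. Current symbols are used for the SR family, and SF3B14 is the gene now called SF3B6.

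SR proteins bind exonic enhancers through RNA recognition motifs and recruit the splicing machinery through domains rich in arginine and serine, which kinases phosphorylate. The hnRNPs coat nascent transcripts, and many of them silence splice sites that SR proteins would otherwise activate. SF3A and SF3B are the protein complexes of the U2 snRNP that hold it at the branch point, and their genes are expressed in nearly every cell.

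LNCaP, a prostate cancer line that responds to androgen, was transfected with a single nonsense siRNA (NS) or with a pool of siRNAs against SLIRP, an RNA-binding corepressor of nuclear receptors. The medium was then changed to serum-free medium with ethanol as vehicle (Veh) or with 1 nM dihydrotestosterone (DHT), the ligand of the androgen receptor. Control cells without and with androgen form the groups NS-Veh and NS-1nM DHT, knockdown cells the groups SLIRP-Veh and SLIRP-1nM DHT. Each of these 4 groups was sequenced in 4 libraries, and every control also carried an siRNA and had no serum. The libraries of a group came from more than 1 experiment, the labels do not say which library belongs to which, and the p-values below measure the spread between these libraries, which may in part be technical.

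Library totals ranged from 436353 to 1689708 counts, and 3 counts, the smallest signal read here as detection, corresponded to between 1.78 and 6.88 CPM (counts per 1000000 counts of a library), a floor that covers counting error only. All other CPM values are scaled with TMM library sizes. SLIRP itself stood between 44.6 and 62.9 CPM in the 8 NS libraries and between 1.40 and 7.96 in the 8 libraries with SLIRP siRNA. All 8 luminal prostate markers were detected, while the basal markers KRT5 and TP63, the endothelial markers PECAM1 and CDH5, the leukocyte markers PTPRC and CD3E and the fibroblast marker DCN had 0 counts in every library. Of the 13 basal, endothelial, leukocyte and fibroblast markers listed 6 had counts, led by COL1A1, a collagen of fibroblasts, at 5.61 to 21.7 CPM and VWF, an endothelial clotting factor, at 2.34 to 17.3 CPM, while KRT14, COL1A2, LUM and CD68 reached at most 6 counts in a library. Per group the summed fibroblast markers were 13.8 to 23.7 CPM in NS-Veh, 7.26 to 14.7 in NS-1nM DHT, 12.4 to 21.7 in SLIRP-Veh and 5.61 to 15.1 in SLIRP-1nM DHT. The summed endothelial markers were 5.90 to 11.5, 9.93 to 17.3, 2.34 to 6.68 and 8.42 to 11.9 CPM, the leukocyte markers 2.62 to 4.61, 1.45 to 4.58, 0 to 7.77 and 0.796 to 2.59, and the basal markers at most 1.53, in the same order of groups. The summed luminal markers were 4032 to 4240 CPM in NS-Veh, 4052 to 4599 in NS-1nM DHT, 2939 to 3092 in SLIRP-Veh and 3181 to 3544 in SLIRP-1nM DHT. This sum was lower with SLIRP siRNA in both treatments, and its part in the results below was not tested. FOLH1 alone stood at 1003 to 2136 CPM over the 16 libraries, and single luminal markers were not compared between groups. Fewer cells of a kind and less RNA per cell cannot be told apart in such bulk RNA.

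Promoter sequences are shown for 5 genes, SRSF1, SRSF9, HNRNPAB, HNRNPUL1 and SF3B2, because members of the families moved together or apart after knockdown and these are among the genes with the larger changes described below. They are the 250 bases before the annotated start, read 5′ to 3′ on the strand of the gene from RefSeq on GRCh38.p14, in lower case with matches to 5 short promoter motifs in capitals. The motifs, searched on both strands, were the CCAAT box (CCAAT), an ETS core (CCGGAAG), the GC box (GGGCGG), the E box (CACGTG) and the TATA box (TATAAA). No motif contains another, and the genes and motifs were chosen after the expression values had been seen. SRSF1 (chr17:58007247-58007496, minus strand) and SRSF9 (chr12:120469749-120469998, minus strand), the SR genes with the largest rise and the only called fall, had 0 matches, HNRNPAB (chr5:178204283-178204532, plus strand) had 6, HNRNPUL1 (chr19:41262307-41262556, plus strand) had 1 and SF3B2 (chr11:66052114-66052363, plus strand) had 2.
SRSF1: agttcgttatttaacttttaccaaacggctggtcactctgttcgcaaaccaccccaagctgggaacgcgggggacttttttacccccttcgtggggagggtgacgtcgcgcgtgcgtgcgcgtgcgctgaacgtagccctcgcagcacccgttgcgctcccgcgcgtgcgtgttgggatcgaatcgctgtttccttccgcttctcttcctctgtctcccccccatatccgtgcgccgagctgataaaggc
SRSF9: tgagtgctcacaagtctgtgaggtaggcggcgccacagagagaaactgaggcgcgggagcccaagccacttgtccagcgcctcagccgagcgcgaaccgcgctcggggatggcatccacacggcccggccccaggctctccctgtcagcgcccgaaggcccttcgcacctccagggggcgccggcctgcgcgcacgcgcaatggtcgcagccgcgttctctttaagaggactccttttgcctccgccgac
HNRNPAB: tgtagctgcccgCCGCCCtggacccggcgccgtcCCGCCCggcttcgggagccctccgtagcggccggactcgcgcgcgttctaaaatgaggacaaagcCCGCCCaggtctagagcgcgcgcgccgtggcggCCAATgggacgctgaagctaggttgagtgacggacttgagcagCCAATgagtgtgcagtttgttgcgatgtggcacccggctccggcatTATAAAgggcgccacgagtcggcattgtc
HNRNPUL1: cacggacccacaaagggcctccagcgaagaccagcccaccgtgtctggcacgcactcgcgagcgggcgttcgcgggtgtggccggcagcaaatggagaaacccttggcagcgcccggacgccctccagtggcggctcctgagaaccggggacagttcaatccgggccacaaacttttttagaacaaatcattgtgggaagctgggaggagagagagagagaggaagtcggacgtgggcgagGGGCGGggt
SF3B2: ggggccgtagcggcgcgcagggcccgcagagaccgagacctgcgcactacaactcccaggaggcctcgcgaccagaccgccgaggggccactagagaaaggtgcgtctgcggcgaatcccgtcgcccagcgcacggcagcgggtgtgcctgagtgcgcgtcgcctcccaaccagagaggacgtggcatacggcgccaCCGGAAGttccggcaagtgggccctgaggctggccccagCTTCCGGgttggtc

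Promoters were matched for 36 of the 40 genes. A CCAAT box was present in 12 of 18 hnRNP promoters, against 2 of 10 SR and 1 of 8 SF3 promoters, 36.3% of the 8313 promoters of genes tested here and 32.0% of all 35116 promoters in the table. The ETS core was present in 6 of 8 SF3 promoters (SF3A1, SF3A2, SF3A3, SF3B2, SF3B4 and SF3B14), against 2 of 18 hnRNP and 2 of 10 SR promoters, 18.2% of the promoters of genes tested and 8.52% of all. Both motifs were present in HNRNPF alone among the 36. A GC box was present in 14 of 18 hnRNP, 6 of 8 SF3 and 3 of 10 SR promoters against 69.0% of genes tested and 42.6% of all. An E box was present in 5 of 18 hnRNP, 1 of 8 SF3 and 0 of 10 SR promoters against 9.49% and 6.34%, and a TATA box in 3, 0 and 2 of them against 4.8% and 10.7%. These matches are descriptions of sequence and were not tested against expression, and a window without a match says only that these letters are not in it.

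In control cells the 3 families differed widely in level among their own members. Per kilobase of coding sequence, HNRNPA2B1, which packages pre-mRNA and sorts RNA for transport, was the most abundant hnRNP in NS-Veh at 818 ± 16.9 CPM per kb (SD, n = 4). It was followed by HNRNPA1, the best-studied splicing silencer, at 623 ± 76.6 and HNRNPC, which binds uridine tracts, at 603 ± 26.3. As counted, HNRNPA1 and HNRNPC did not differ by more than their spread, while HNRNPA2B1 lay above both. Reads of HNRNPA1 can be assigned to HNRNPA1L2, a near-identical copy that stood at 515 ± 66.1 CPM per kb. The rank of HNRNPA1 against HNRNPA2B1 is therefore uncertain. The least abundant coding hnRNP gene was HNRNPUL2, a relative of HNRNPU, at 65.9 ± 3.10 CPM per kb. Among SR proteins SRSF1, the founding member of the family, led at 519.8 ± 17.7 CPM per kb, SRSF3, the shortest SR protein, followed at 409.7 ± 25.1, and SRSF4, whose RS domain is long, was last at 36.0 ± 3.87. SF3B5 (187 ± 11.9) and SF3B14 (186 ± 19.96), both small SF3B proteins, led the SF3 subunits and did not differ from each other by more than their spread, and SF3A2 was last at 41.9 ± 6.37. The order depended on the length used. Per kilobase of whole transcript, a length chosen after the data were seen, HNRNPA1L2 led the hnRNPs at 368 ± 47.2 CPM per kb. Its place rests on the same uncertain assignment of reads. On this length SRSF9 led the SR proteins at 139 ± 4.77 and SF3B14 led the SF3 subunits at 107 ± 11.5 CPM per kb.

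As a whole the families took a larger share of each library with SLIRP siRNA. The 40 genes made up 0.97%, 0.93%, 1.01% and 1.02% of the counts in the NS-Veh libraries and 0.94%, 0.96%, 1.01% and 1.00% in NS-1nM DHT. They made up 1.18%, 1.26%, 1.22% and 1.23% in SLIRP-Veh and 1.24%, 1.21%, 1.24% and 1.16% in SLIRP-1nM DHT. All 8 libraries with SLIRP siRNA lay above all 8 NS libraries, and within each siRNA the vehicle and DHT libraries overlapped. The same separation was present within each family. The hnRNP share was 0.603% to 0.686% with NS and 0.769% to 0.861% with SLIRP siRNA, the SR share 0.183% to 0.205% against 0.215% to 0.234%, and the SF3 share 0.130% to 0.155% against 0.157% to 0.180%. A share of a library is weighted toward the most abundant members, so the members are given one by one below.

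**Figure D1:**
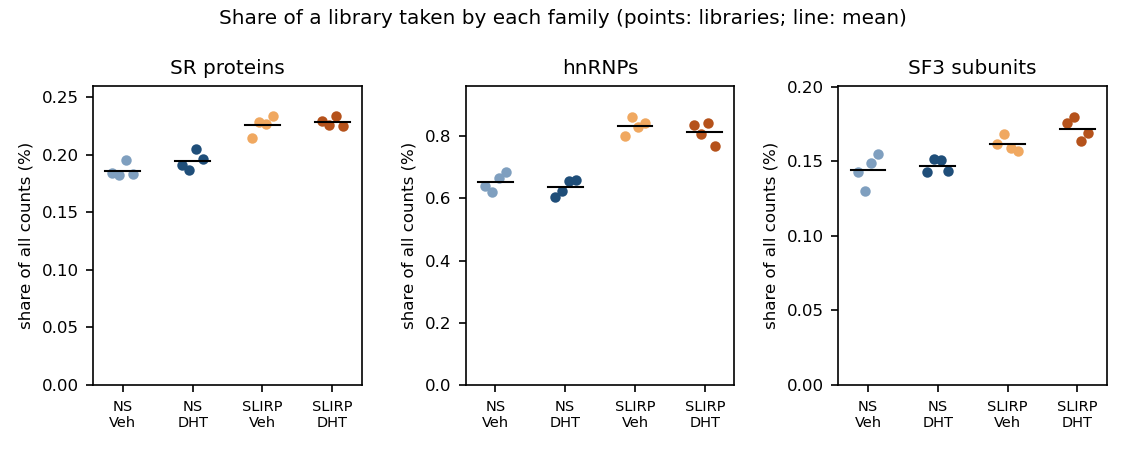
Share of all counts in a library (percent, linear axis from 0) taken by the SR proteins, hnRNPs and SF3 subunits in the 4 groups, with 1 point per library and a line at the mean of 4. In each family all 8 points with SLIRP siRNA lie above all 8 points with NS, with hnRNP shares of 0.769% or more against 0.686% or less.

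The comparison of all SLIRP siRNA libraries with all NS libraries asks which genes SLIRP knockdown changed with the treatments pooled. The families mostly rose: 22 of the 40 genes were higher and 3 were lower at an FDR of 0.01 in edgeR, against 17.8% higher and 17.4% lower among all 10167 genes tested. All 40 members passed the filter on low counts. Their median log2 fold change was 0.31, against -0.01 over all genes tested, and 33 of the 40 values were above 0. Of the hnRNPs 14 of 20 were higher and 1 was lower, with a median log2 fold change of 0.46. These 14 include both HNRNPA1 and HNRNPA1L2 and both HNRNPA3 and HNRNPA3P1, near-identical copies that can share reads. The counts of hnRNPs here and below are therefore not counts of independent signals. Of the SR proteins 4 of 11 were higher and 1 was lower, with a median of 0.15, and of the SF3 subunits 4 of 9 were higher and 1 was lower, with a median of 0.27. No test compared the families with each other. The shares of all genes given here and below were not matched for expression level, and the lowest member had a mean count of 50.6. The changes were modest. With a fold change of at least 1.5 as a further condition, 5 members were higher (SRSF1, HNRNPA1L2, HNRNPAB, HNRNPH3 and HNRNPR) and 1 was lower (SRSF9), against 9.64% higher and 8.79% lower among all genes tested. In 14 members every library with SLIRP siRNA lay above every NS library and in 3 every one lay below, against 7.82% above and 7.33% below among all genes tested.

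**Figure D2:**
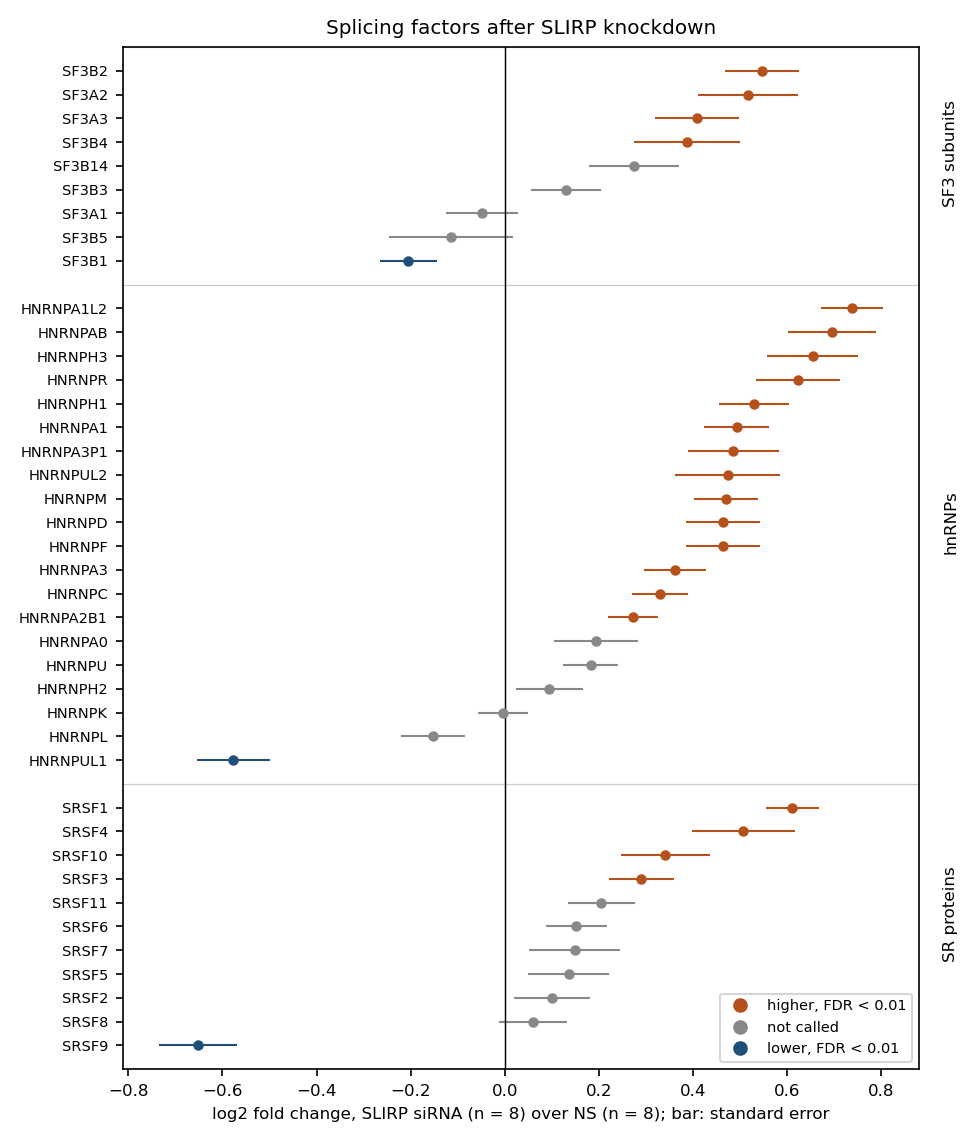
Log2 fold change of each of the 40 genes, SLIRP siRNA (8 libraries) over NS (8 libraries), from edgeR, with bars of 1 standard error, grouped by family and coloured by the call at an FDR of 0.01. Most points lie to the right of 0, 22 of them called higher, and SRSF9, HNRNPUL1 and SF3B1 are the 3 called lower.

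Within the SR family SRSF1 and SRSF9 moved in opposite directions. SRSF1, which binds purine-rich enhancers and is also an oncoprotein, stood at 385, 378, 406 and 377 CPM in NS-Veh and 415, 380.2, 381 and 394 in NS-1nM DHT. It stood at 533, 626, 599.8 and 576 CPM in SLIRP-Veh and 623, 649.7, 607 and 568 in SLIRP-1nM DHT. Every library with SLIRP siRNA was above every NS library, and the log2 fold change was 0.61 (SE 0.057, edgeR FDR = 3.28e-10). SRSF9, also called SRp30c, stood at 156, 164, 154 and 165 CPM in NS-Veh and 154, 186, 192 and 172 in NS-1nM DHT. It stood at 106, 96.3, 98.9 and 125 CPM in SLIRP-Veh and 81.5, 111, 116 and 116 in SLIRP-1nM DHT. Every library with SLIRP siRNA was below every NS library, and SRSF9 fell by 0.65 on the log2 scale (SE 0.083, edgeR FDR = 1.20e-07).

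SRSF4 rose from a median of 55.8 CPM (45.4 to 64.9) in the 8 NS libraries to 79.3 (63.7 to 107) in the 8 with SLIRP siRNA. The ranges overlapped narrowly, with a log2 fold change of 0.51 (SE 0.11, edgeR FDR = 3.12e-04). SRSF10, which represses splicing when it loses its phosphates, rose from 111 CPM (90.5 to 129) to 141 (116 to 165), a log2 fold change of 0.34 (SE 0.095, edgeR FDR = 0.00375). This call lay near the threshold. It was lost without NS-Veh replicate 3 (log2 fold change 0.308, edgeR FDR = 0.0101) or SLIRP-1nM DHT replicate 3 (0.306, edgeR FDR = 0.0113). SRSF3, which also takes part in mRNA export, rose from 209 CPM (184 to 247) to 263 (224 to 293), a log2 fold change of 0.29 (SE 0.069, edgeR FDR = 9.01e-04). The other 6 SR genes were not called, and their log2 fold changes lay between 0.06 (SRSF8) and 0.21 (SRSF11). Among them SRSF2, the speckle protein SC35, stood at 142 CPM (111 to 159.6) with NS and 152 (136 to 178) with SLIRP siRNA, a log2 fold change of 0.10 (SE 0.081, edgeR FDR = 0.327).

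**Figure D3:**
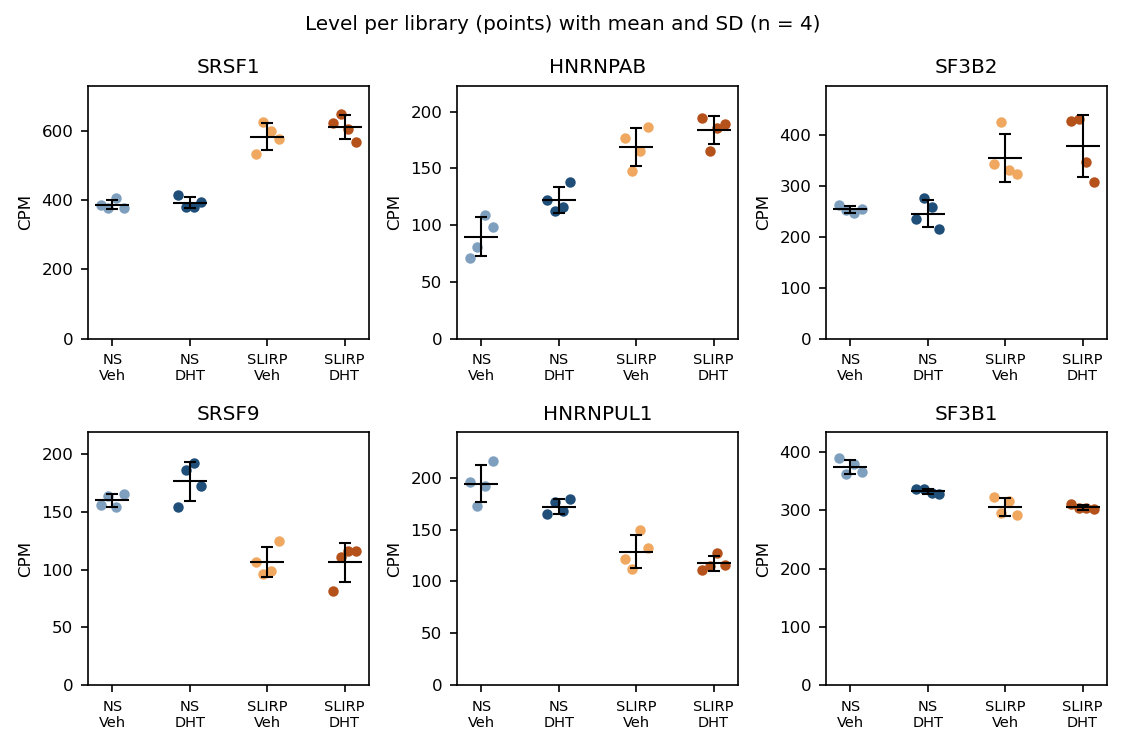
Level in CPM (linear axes from 0) of SRSF1, SRSF9, HNRNPAB, HNRNPUL1, SF3B2 and SF3B1 in each of the 16 libraries, as points, with the mean and SD of the 4 libraries of each group. In the upper row (SRSF1, HNRNPAB, SF3B2) every point with SLIRP siRNA lies above every NS point, and in the lower row (SRSF9, HNRNPUL1, SF3B1) every one lies below.

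HNRNPA1 and its relatives of the A group rose, except HNRNPA0, which was not called. HNRNPA1 rose from a median of 678 CPM (581 to 801) with NS to 926 (815 to 1058) with SLIRP siRNA, with no overlap and a log2 fold change of 0.49 (SE 0.070, edgeR FDR = 7.83e-07). HNRNPA1L2, a near-identical intronless copy of HNRNPA1 on chromosome 13, rose from 476 CPM (409 to 583) to 789.5 (737 to 887), the largest log2 fold change of the 40 genes at 0.74 (SE 0.066, edgeR FDR = 1.77e-10). Reads of 1 copy can be assigned to the other, so the split between them is uncertain. HNRNPA1L2 took 40.6% to 43.4% of the summed counts of the pair with NS and 44.9% to 48.4% with SLIRP siRNA. The sum of both copies, a measure added after the data were seen, had a log2 fold change of 0.60 (SE 0.065, edgeR FDR = 6.10e-09). The pair HNRNPA3 and HNRNPA3P1, a processed pseudogene of it, also rose, with log2 fold changes of 0.36 and 0.49 and 0.38 (SE 0.062, edgeR FDR = 7.92e-06) for the sum. HNRNPA2B1 rose from 822 CPM (770 to 852) to 1009.5 (859 to 1046), a smaller log2 fold change of 0.27 (SE 0.053, edgeR FDR = 9.33e-05) with no overlap.

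HNRNPAB, a relative of HNRNPD that binds AU-rich and CArG sequences, stood at 71.1, 80.7, 109 and 98.6 CPM in NS-Veh and 122, 112, 116 and 138 in NS-1nM DHT. It stood at 176, 148, 166 and 186 CPM in SLIRP-Veh and 194, 166, 185 and 189 in SLIRP-1nM DHT. All libraries with SLIRP siRNA were above all NS libraries, and the log2 fold change was 0.69 (SE 0.093, edgeR FDR = 3.20e-07). Of the 4 hnRNPs of the H and F group, which bind runs of guanines, 3 rose. HNRNPH3 rose from 91.7 CPM (65.3 to 108) to 137 (120.2 to 183) and HNRNPH1 from 258 (215 to 304) to 387 (309 to 425), with log2 fold changes of 0.65 (SE 0.097) and 0.53 (SE 0.074) and edgeR FDR of 1.60e-06 and 6.94e-07. HNRNPF also rose, by 0.46 (SE 0.078), while HNRNPH2 on the X chromosome was not called at 0.09 (SE 0.071).

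HNRNPR, a close relative of SYNCRIP, rose from 171 CPM (145 to 192) to 253 (209 to 362), a log2 fold change of 0.62 (SE 0.089, edgeR FDR = 9.87e-07). HNRNPM, which binds GU-rich sequence, rose from 233 CPM (200.1 to 283) to 325 (297 to 353), a log2 fold change of 0.47 (SE 0.069, edgeR FDR = 1.34e-06). Neither gene's ranges overlapped. HNRNPD and HNRNPC, which bind AU-rich elements and uridine tracts, had called log2 fold changes of 0.46 (SE 0.079) and 0.33 (SE 0.060).

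The HNRNPU group, large proteins with a SAP domain for binding chromatin, went in both directions. HNRNPUL1 stood at 196, 173, 192 and 216 CPM in NS-Veh and 165, 176, 168 and 179.9 in NS-1nM DHT. It stood at 122, 112, 149.6 and 132 CPM in SLIRP-Veh and 111, 115, 128 and 115 in SLIRP-1nM DHT. All libraries with SLIRP siRNA were below all NS libraries, and HNRNPUL1 fell by 0.58 on the log2 scale (SE 0.078, edgeR FDR = 3.70e-07). HNRNPUL2 rose from 142 CPM (110.1 to 173) to 201 (122 to 267), with overlap and a log2 fold change of 0.47 (SE 0.11, edgeR FDR = 7.81e-04). HNRNPU itself, the scaffold attachment factor, stood at 664 CPM (609 to 725) and 759 (685 to 853), a log2 fold change of 0.18 (SE 0.059) just outside the threshold (edgeR FDR = 0.0108). It passed with RLE normalization (0.00693), in DESeq2 (0.00122), with at least 10 counts in every library (0.00534), with treatment as a covariate (0.00475), with replicate number as a block (0.00187) and with a term for replicates 1 and 2 against 3 and 4 (0.00751), which was chosen after the data were seen. It also passed without NS-Veh replicate 1 (edgeR FDR = 0.00657), NS-Veh replicate 4 (0.00676), SLIRP-Veh replicate 3 (0.00611), SLIRP-Veh replicate 4 (0.00644) or SLIRP-1nM DHT replicate 4 (0.00407). Of the remaining hnRNPs, HNRNPL, which binds CA repeats, stood at 328 CPM (288 to 369) and 303 (248 to 340.3), a log2 fold change of -0.15 (SE 0.068, edgeR FDR = 0.0641), and HNRNPA0 and HNRNPK were not called either.

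The SF3 subunits moved in both directions. Of SF3B, SF3B2, which contacts the intron near the branch point, stood at 263, 251, 246 and 254 CPM in NS-Veh and 234, 275, 257 and 215 in NS-1nM DHT. It stood at 343, 424, 330.0 and 323 CPM in SLIRP-Veh and 428, 431, 346 and 307 in SLIRP-1nM DHT. All libraries with SLIRP siRNA lay above all NS libraries, with a log2 fold change of 0.55 (SE 0.078, edgeR FDR = 9.47e-07). SF3B1, the large subunit that is often mutated in leukaemia, stood at 389, 362, 379 and 366 CPM in NS-Veh and 336, 336, 329 and 329 in NS-1nM DHT. It stood at 324, 295, 315 and 291 CPM in SLIRP-Veh and 312, 303, 303 and 302 in SLIRP-1nM DHT. The groups did not overlap, but the gap in DHT was narrow, and SF3B1 fell by 0.20 on the log2 scale (SE 0.060, edgeR FDR = 0.00548). The SF3B1 call was lost without any one of 6 libraries, with an edgeR FDR of 0.0122 without NS-Veh replicate 1, 0.0240 without NS-Veh replicate 3, 0.0180 without NS-Veh replicate 4, 0.01005 without SLIRP-Veh replicate 3, 0.0154 without SLIRP-Veh replicate 4 and 0.0111 without SLIRP-1nM DHT replicate 4.

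SF3B4, which interacts with SF3B2, rose from 82.1 CPM (39.2 to 94.6) to 111 (77.5 to 129.8), a log2 fold change of 0.39 (SE 0.11, edgeR FDR = 0.00551). This call was lost without NS-1nM DHT replicate 1 (edgeR FDR = 0.0122), SLIRP-Veh replicate 4 (0.01001), SLIRP-1nM DHT replicate 1 (0.0111) or SLIRP-1nM DHT replicate 4 (0.0162). SF3B14, which lies at the branch adenosine, and SF3B3 and SF3B5 were not called, with log2 fold changes of 0.27, 0.13 and -0.11. SF3B5 stood at 48.3 CPM (44.6 to 61.7) and 46.6 (29.5 to 62.4).

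Of the 3 SF3A subunits, SF3A2 and SF3A3 rose and SF3A1 was not called. SF3A2 rose from 56.7 CPM (39.4 to 71.8) to 85.4 (69.9 to 92.6), a log2 fold change of 0.52 (SE 0.11, edgeR FDR = 1.76e-04). SF3A3 rose from 104 CPM (91.6 to 114) to 139.9 (102 to 160.3), a log2 fold change of 0.41 (SE 0.089, edgeR FDR = 3.54e-04). SF3A1 stood at 178 CPM (161 to 189.8) and 168 (149.8 to 216), a log2 fold change of -0.05 (SE 0.077, edgeR FDR = 0.639).

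The strand used in counting is not given in the sources used here, so reads from a gene and from an overlapping gene on the opposite strand cannot be told apart. On GRCh37 with GENCODE annotation, SRSF9 (chr12:120899475-120933749) shares exonic sequence with GATC on the opposite strand, HNRNPUL1 (chr19:41768401-41813692) with TGFB1, HNRNPAB (chr5:177631534-177638164) with PHYKPL, HNRNPH3 with RUFY2, SF3A2 with PLEKHJ1 and HNRNPA2B1 with CBX3 and NFE2L3. SF3B1 (chr2:198253239-198299803) has no such partner, and SRSF1 (chr17:56078280-56084707) and SF3B2 (chr11:65818200-65836779) overlap unnamed loci and, for SF3B2, a small RNA. The parts of these neighbours in the values were not tested. Many genes of these families are known to make transcripts with a premature stop that are degraded, by which their proteins limit their own level. At least 1 such transcript is annotated for 11 of 11 SR genes, 12 of 19 coding hnRNP genes and 3 of 9 SF3 genes, against 50.3% of the 9741 protein-coding genes tested, and the counts per gene do not separate these transcripts from productive ones.

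Split by treatment, the knockdown response was present with vehicle and with DHT. In vehicle 18 members were higher and 3 were lower in SLIRP-Veh than in NS-Veh, against 11.8% higher and 9.95% lower among all 10684 genes tested (edgeR, FDR 0.01). In DHT 20 members were higher and 2 were lower, against 12.8% higher and 11.6% lower. By family, in vehicle 4 SR, 13 hnRNP and 1 SF3 gene were higher, and in DHT 2 SR, 14 hnRNP and 4 SF3 genes were higher. The groups contrasted share no libraries, but both contrasts come from the same model of all 16 libraries, with a shared estimate of the spread. They also share the siRNAs, so they are not independent. In both, 15 members were higher against 9.36% of all genes tested, and 2 (SRSF9 and HNRNPUL1) were lower against 7.79%. The sign was the same for 37 of 40 against 81.6%, all but HNRNPH2, HNRNPK and SF3A1. SRSF4, SRSF10, HNRNPUL2 and SF3B1 were called in vehicle and not in DHT, and HNRNPA3P1, HNRNPU, SF3A2, SF3A3 and SF3B4 in DHT and not in vehicle. None of these 9 differences between treatments was itself called in the interaction test below. With a fold change of at least 1.5, 6 members were higher and 1 was lower in vehicle against 8.2% and 6.62% of all genes, and 7 were higher and 1 was lower in DHT against 8.58% and 7.5%. With limma on the authors' normalized table at a pseudocount of 0.1, 13 members were higher in DHT against 5.76% of all 13148 genes listed, on a scale on which the median log2 fold change of all genes was -0.12.

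**Figure D4:**
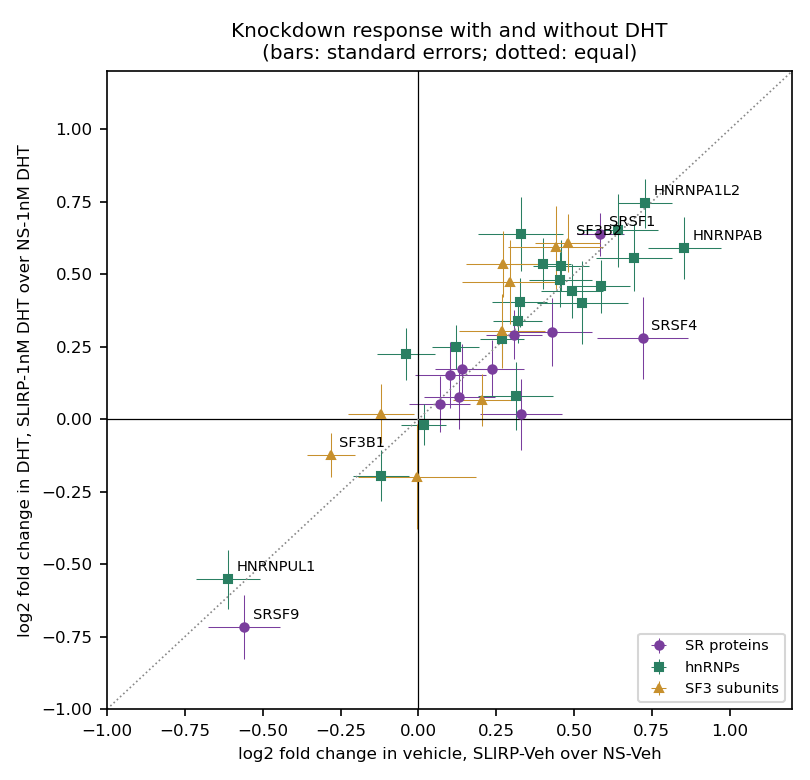
Log2 fold change of each gene with knockdown in vehicle (SLIRP-Veh over NS-Veh, horizontal axis) and in DHT (SLIRP-1nM DHT over NS-1nM DHT, vertical axis), with bars of 1 standard error, marked by family and with a dotted line of equality. Of the 40 points, 37 have the same sign on both axes, with SRSF9 and HNRNPUL1 at the lower left.

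The responses of single genes in vehicle and in DHT stand side by side here, with no call on their difference. HNRNPAB rose by a log2 fold change of 0.85 (SE 0.12) in vehicle and 0.59 (SE 0.11) in DHT, and SRSF4 by 0.72 (SE 0.15) in vehicle against 0.28 (SE 0.14, edgeR FDR = 0.128) in DHT. SRSF1 rose by 0.58 (SE 0.077) in vehicle and 0.64 (SE 0.074) in DHT. The log2 fold changes of SRSF9 were -0.56 (SE 0.12) in vehicle and -0.72 (SE 0.11) in DHT, and those of HNRNPUL1 were -0.61 (SE 0.10) and -0.55 (SE 0.10). SF3B1 had -0.28 (SE 0.077, edgeR FDR = 0.00447) in vehicle and -0.12 (SE 0.076, edgeR FDR = 0.209) in DHT. Its NS level was itself lower in DHT libraries (329 to 336 CPM) than in vehicle libraries (362 to 389 CPM), a log2 fold change of -0.17 (SE 0.072) that was not called (edgeR FDR = 0.229).

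DHT alone called no member in either arm. In control cells 0 of 40 members were called between NS-1nM DHT and NS-Veh, against 1.31% of the 10367 genes tested. An unadjusted p under 0.05 (edgeR) was found for 8 of the 40 members and 1478 of the 10367 genes. The lowest edgeR FDR was 0.105, for HNRNPAB, whose log2 fold change was 0.36 (SE 0.12), followed by SRSF7 at 0.31 (SE 0.13, edgeR FDR = 0.228). The family medians were 0.07 for SR proteins, -0.08 for hnRNPs and -0.01 for SF3 subunits. In knockdown cells 0 of 40 were called between SLIRP-1nM DHT and SLIRP-Veh, against 1.17% of 10684 genes. An unadjusted p under 0.05 (edgeR) was found for 3 of the 40 members and 1663 of the 10684 genes. These 3 were HNRNPH1 and SRSF4 with log2 fold changes of -0.21 (SE 0.089) and -0.32 (SE 0.14), and SF3A3 with 0.24 (SE 0.11). The family medians there were 0.01, -0.06 and 0.12. DESeq2 called 0 members in both comparisons as well.

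**Figure D5:**
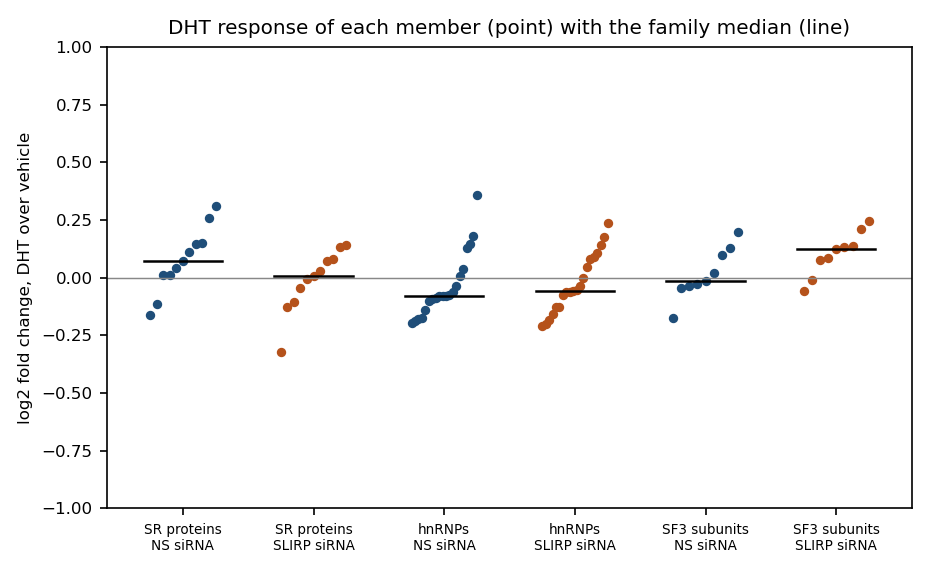
Log2 fold change of each gene, DHT over vehicle, by family in cells with NS siRNA (4 against 4 libraries) and with SLIRP siRNA (4 against 4 libraries), with a line at the family median. The points lie between -0.32 and 0.36 around medians of -0.08 to 0.12, and 0 of 40 were called in either arm.

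The difference in DHT response between SLIRP siRNA and NS, tested as an interaction, was called for 0 of 40 members and for 0% of 10684 genes in edgeR, and DESeq2 also called 0 genes. At an unadjusted p under 0.05 there were 388 genes, 2 of them members. These were SRSF4, whose DHT response was lower with SLIRP siRNA by a log2 difference of -0.44 (SE 0.21), and HNRNPH2, with a log2 difference of 0.26 (SE 0.13). The standard errors of the members in this test ran from 0.10 for HNRNPA2B1 to 0.26 for SF3B5 on the log2 scale. The largest difference among them by size, that of SRSF4, was not called. In simulated data the test called 46 of 200 genes given a 1.5-fold change, so differences of that size can go uncalled.

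Other parts of the splicing machinery were counted for comparison in lists chosen by function, against 17.8% higher, 17.4% lower and a median log2 fold change of -0.01 among all genes tested in the same comparison. Of the factors of the U1 and U2 snRNPs and of U2AF, the partners of SF3A and SF3B, 13 of 22 were higher and 1 was lower with SLIRP siRNA over all 16 libraries, against 17.8% and 17.4% of all genes, with a median log2 fold change of 0.39. The Sm ring proteins SNRPD3, SNRPD1 and SNRPF had the largest changes, with log2 fold changes of 0.85 (SE 0.10), 0.72 (SE 0.11) and 0.69 (SE 0.12), and SNRPE, another Sm protein, was the one that was lower, at -0.62 (SE 0.14). Of SR-related proteins 8 of 14 were higher and 0 were lower, also against 17.8% and 17.4%, with a median of 0.35. They were led by PNN, a protein of the exon junction, at 0.73 (SE 0.088), TRA2B, an SR-like splicing activator, at 0.57 (SE 0.084) and SRRM1, a coactivator that links SR proteins, at 0.55 (SE 0.085).

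Of 16 tested hnRNP-type proteins under other symbols 8 were higher and 1 (CIRBP, the cold-inducible RNA-binding protein, at -0.35, SE 0.082) was lower, against 17.8% and 17.4% of all genes, with a median of 0.31. SYNCRIP (hnRNP Q), HNRPDL and TAF15 led with 0.69 (SE 0.073), 0.63 (SE 0.082) and 0.58 (SE 0.077). Of tri-snRNP and catalytic factors 3 of 20 were higher (SART1, PRPF3 and AQR, at 0.62, 0.62 and 0.38) and 0 were lower, a share of higher calls no larger than the 17.8% of all genes, with a median of 0.16. Of the kinases that phosphorylate SR proteins and the importin that carries them to the nucleus, 0 of 9 were called in edgeR. Among all genes 17.8% were higher and 17.4% were lower. An unadjusted p under 0.05 (edgeR) was found for 2 of the 9 and for 5401 of all 10167 genes. DESeq2 called 1 of this list, and its median was 0.06. Higher calls were therefore more frequent than among all genes in the SR-related list, the hnRNP-type list and the list of U1, U2 and U2AF factors. Among the tri-snRNP and catalytic factors their share was near that of all genes. The list of SR kinases and importin, with 0 of 9 called, is too short to compare with that share. Differences between lists were not tested.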

How the data were processed

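RNA from LNCaP cells was sequenced in 16 libraries, 4 in each of 4 groups, and samples were grouped by their labels. The authors deposited estimated counts per gene, rounded to whole numbers, for 20531 entries, and a normalized table of 13148 genes, a score made by dividing by the upper quartile of a library and scaling. The submitters' processing notes name CASAVA, RSEM and the build hg19, with no versions. The annotation and the strand used in counting are not given in the sources used here.

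The estimated counts were analysed with edgeR 4.0.16 in R 4.3.3 (TMM, filterByExpr, glmQLFit and glmQLFTest, Benjamini-Hochberg adjustment over all genes tested, FDR 0.01). Knockdown was tested on 16 libraries with siRNA as the only term, the DHT response of control cells on the 8 NS libraries, and the other 4 comparisons were contrasts of a 4-group model. CPM used TMM library sizes. The SE of an edgeR log2 fold change, also drawn as bars, was its absolute value divided by the square root of the glmQLFTest F statistic. The alternatives were DESeq2 1.42.0, RLE and upper-quartile normalization, other filters, thresholds and covariates, the replicate block, only the groups compared, limma 3.58.1 on the normalized score (log2 with pseudocounts of 1 and 0.1) and leaving out each library. Summed copies, transcript length, counts thinned to the smallest library and a term for replicates 1 and 2 against 3 and 4 were chosen after seeing the data. The models were tested on simulated data.

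The members, the marker and pathway lists and the rule for named genes were chosen with earlier results of these data known. That rule named the 5 called members of a family with the largest change over all 16 libraries, the 3 with the smallest p in the other comparisons, the extremes of level per coding length, those at the count minimum, and SRSF1, SRSF2, SRSF3, HNRNPA1, HNRNPA2B1, HNRNPL, HNRNPU, SF3B1 and SF3A1. Other members that the text names were chosen after their values were seen. The symbol rule found no SR protein, so that family was matched by Entrez identifier through RefSeq, and 9 of the 21 rows with SFRS symbols whose current name is another stayed out. Coordinates and lengths come from GENCODE v44 lifted to GRCh37, promoters from RefSeq on GRCh38.p14. Plots were made in Python 3.11.15 (matplotlib 3.10.9).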

Additional observations from a re-analysis of the deposited data

Results flagged for a closer look

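Each named gene was checked in each group of 4 libraries for a library whose gap to its neighbour was a large part of the group's range. Of 100 sets of a gene and a group checked, 3 stood out, and about 5% would by chance. SRSF9 was low in SLIRP-1nM DHT replicate 1, at 81.5 CPM against 111 to 116 in the other libraries of the group. HNRNPH3 was high in SLIRP-Veh replicate 2, at 183 CPM against 136 to 139. HNRNPR was high in the same library, at 362 CPM against 234 to 241. The calls of these genes over all 16 libraries were the same without any one library.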

How the results depend on the processing

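No direction changed among the named genes and family medians in the comparison of SLIRP siRNA with NS. In the other comparisons only counts of calls were compared between settings. Of 277 values of the 25 named genes and the summed copies under other settings, 261 kept their side of the threshold. The call was lost in 10 and gained in 6, all of the last for HNRNPU. With 1 library left out, 383 of 400 values of the named genes kept their side, 12 lost the call and 5 gained it. Requiring a fold change of at least 1.5 left 5 members higher and 1 lower over all 16 libraries, 6 and 1 in vehicle, and 7 and 1 in DHT, and limma with a pseudocount of 0.1 left 13 higher in DHT. Counts thinned to the smallest library, chosen after seeing the data, gave medians of 0.38 for hnRNPs and 0.19 for SF3 subunits, and SRSF3, SRSF10, SF3A2, SF3A3 and SF3B1 lost the call, with FDR from 0.01005 to 0.0622. Fewer counts are part of that setting's construction. SF3B1 also lost it without the filter on low counts (FDR 0.0201), and SRSF10 and SF3B4 in limma (FDR 0.0122 to 0.0300), where the cause was not tested.

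Leaving out 1 library gave 21 to 24 members higher and 2 to 3 lower over all 16 libraries, 14 to 17 higher and 2 to 3 lower in vehicle, and 17 to 20 higher and 2 lower in DHT, with 0 in the other 3 comparisons. Family medians then ran from 0.15 to 0.18 for SR proteins, 0.42 to 0.48 for hnRNPs and 0.24 to 0.33 for SF3 subunits. Same-numbered libraries of the groups compared correlated at 0.0001 to 0.20, with 6 of 16 pairs over 0.1, so the numbers were not taken as pairs. Of these 3 of 4 were between NS-Veh and NS-1nM DHT (0.05 to 0.20, with 3 of 4 NS-Veh libraries correlating best with their own number), 2 of 4 between SLIRP-Veh and SLIRP-1nM DHT, 1 of 4 between the DHT groups and 0 of 4 between the vehicle groups. The numbers fell into 2 sets, since 29 of 32 correlations within replicates 1 and 2 or within 3 and 4 were above 0. Across these sets 29 of 32 were below 0. The values were centred on the group mean of each gene, so the negative correlations largely follow from the positive ones. The study's methods describe 2 experiments of 2 replicates, which the labels do not tie to numbers. With the set as a term, chosen after seeing the data, 23 members were higher and 3 lower over all 16 libraries, 18 and 3 in vehicle, and 21 and 2 in DHT, with 0 in the other comparisons, while calls over all genes rose from 136 to 293 for DHT in control cells and from 125 to 201 in knockdown cells (270 and 184 with the replicate block). With the replicate number as a block, 23 members were higher and 3 lower over all 16 libraries, 18 and 3 in vehicle, and 21 and 2 in DHT, and 0 were called in the other comparisons. Knockdown calls over all genes are not given for these terms or for leaving out a library. The member counts there show only how far they moved, not how they stood against all genes.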
